A study of Equus asinus with 12 samples.

Results

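The genes described here are those of the cytosolic ribosomal proteins, the proteins that together with ribosomal RNA make up the ribosomes of the cytoplasm. They were taken by symbol from a table of 27084 loci: names that begin with RPL or RPS and a number, together with RPSA, RPLP0, RPLP1 and RPLP2, without the RPS6K kinases. This gave 79 rows with 77 names, and for RPL8 and RPL22, which have 2 rows each, the row with the higher mean was used. Of the 77 names, 71 belong to the textbook set of 80 ribosomal proteins (42 of the large and 29 of the small subunit) and 5 are paralogs of such a gene (RPL3L, RPL7L1, RPL22L1, RPL26L1 and RPS27L). The remaining name, RPS19BP1, encodes a regulator of the deacetylase SIRT1 and is not a ribosomal protein. The other 9 textbook names, among them RPL13, RPL17, RPL35A, RPL41, RPS15A, RPS29, FAU and RACK1, were not taken by this rule.

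The libraries come from skeletal muscle of the Dezhou donkey (Equus asinus) at 24 months of age, in a study of the Wutou and Sanfen strains. Gluteal muscle, from the hip, and longissimus dorsi, which runs along the spine, gave 4 groups of 3 libraries each: Wutou gluteal, Wutou longissimus, Sanfen gluteal and Sanfen longissimus. The samples are described as coming from 6 donkeys, and no label ties a library to an animal, so p-values measure the spread between libraries of a group. No treatment is named in the labels.

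A ribosome is built from a small subunit, which reads the mRNA, and a large subunit, which joins the amino acids, and nearly every ribosomal protein is needed in a single copy per particle. Their mRNAs are abundant in most cells and begin with a terminal oligopyrimidine (TOP) tract, through which mTOR signalling adjusts their translation together. In skeletal muscle, the number of ribosomes is known to rise during growth under load, and striated muscle of mouse and human makes a form of RPL3 of its own, RPL3L.

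Values are FPKM, fragments per kilobase of transcript scaled to library depth, and log2 values are of FPKM + 1. All 77 genes were at 1 FPKM or more in 3 or more libraries and so were among the 12408 loci tested. Read depth is unknown, and summed FPKM ran from 214564 to 319767. Of 8 genes that mark muscle fibres 7 were found, at a sum of 25203 to 32603 FPKM per library, while 0 of 4 erythroid and 1 of 6 leukocyte markers passed the same filter. In bulk muscle, a lower number of cells of a type and less RNA per cell cannot be told apart.

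Ribosomal protein genes were among the most highly expressed genes of the muscle. The median over the 77 genes of the mean level was 88.8 FPKM, against 1.89 FPKM over all tested loci. Of the 77 genes, 33 averaged at least 100 FPKM and 7 averaged under 10 FPKM. Among the 200 loci with the highest mean, 39 were ribosomal protein genes. Together they held 2.84 ± 0.146% of the summed FPKM in Wutou gluteal, 2.92 ± 0.165% in Wutou longissimus, 3.15 ± 0.260% in Sanfen gluteal and 2.85 ± 0.802% in Sanfen longissimus muscle (mean ± SD, n = 3 libraries each). The wide spread of the last group came with its second library, in which the share was 1.93%.

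Among the genes with the highest mean were RPS2 (locus MSTRG.7454) at 328 FPKM, RPLP1 at 265 FPKM, RPLP0 at 257 FPKM and RPL8 at 216 FPKM. RPLP0 and RPLP1, with RPLP2 at 97.8 FPKM, form the stalk of the large subunit that recruits translation factors. RPS2 ran from 254 to 427 FPKM over the 12 libraries and RPLP1 from 200 to 415 FPKM. The lowest of the 71 textbook genes were RPL36 at 2.22 FPKM and RPL27A at 6.34 FPKM. Within the textbook set, levels thus ran from 2.22 to 328 FPKM. The median was 106 FPKM over the 29 small subunit genes and 85.2 FPKM over the 42 large subunit genes.

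Levels went with the number of transcripts that the table lists for a locus. The 28 genes with 1 transcript had a median of 164 FPKM, the 31 genes with 2 transcripts 74.1 FPKM and the 18 genes with 3 or more transcripts 34.8 FPKM. Over the 77 genes, Spearman's rho between level and number of transcripts was -0.56, as a description. Over all tested loci the order was the opposite, with medians of 1.21, 2.50 and 2.71 FPKM for the same 3 classes. How a locus value was formed from several transcripts is not stated, and 97.8% of values above 0 of loci with 1 transcript had at most 6 decimals, against 4.95% for loci with several. The low value of RPL36, a locus with 5 transcripts, is therefore given as listed, and most comparisons below are between libraries for the same gene.

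**Figure D1:**
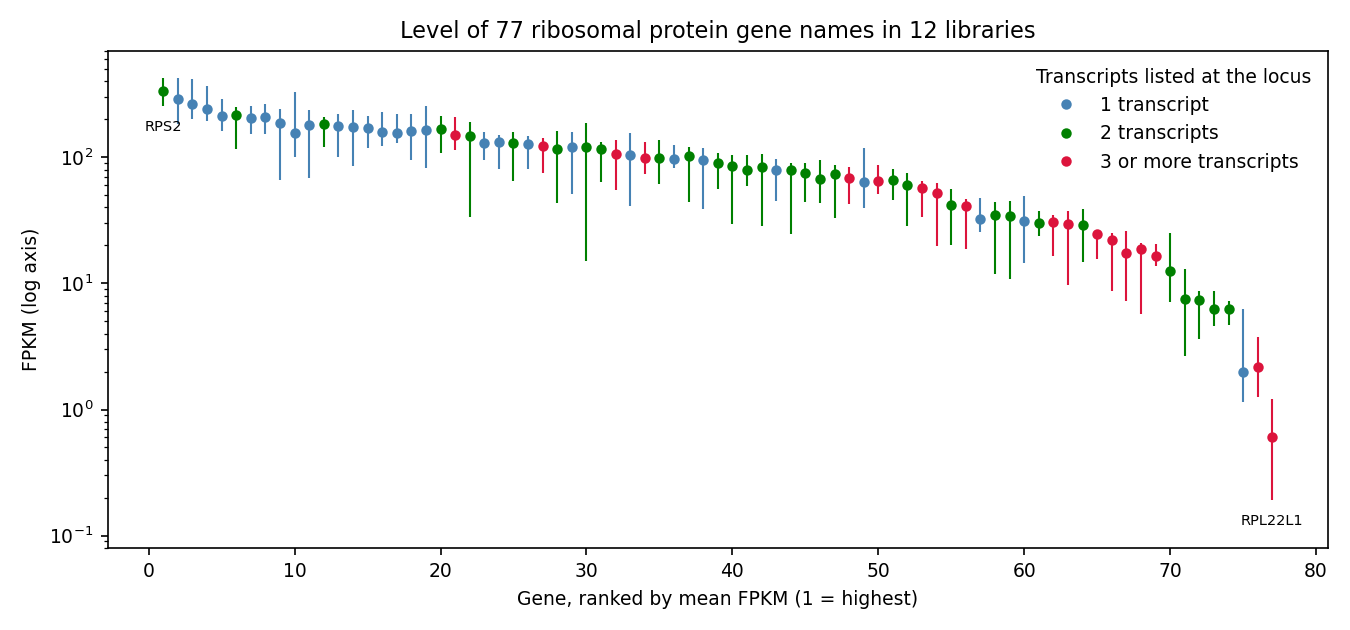
FPKM of the 77 genes (vertical log axis), ranked by mean FPKM (horizontal axis); points are medians over 12 libraries, bars run from the lowest to the highest library, and colours give the number of transcripts at the locus. Genes with 1 transcript have a median of 164 FPKM and gather on the left, and those with 3 or more, median 34.8 FPKM, lie mostly on the right.

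Genes with a known function beyond the body of the ribosome were measured at these levels. RPL5, RPL11 and RPL23, which bind the p53 regulator MDM2 when ribosome assembly is disturbed, averaged 91.0, 96.6 and 70.1 FPKM. RPS6, the small subunit protein phosphorylated by S6 kinase downstream of mTOR, averaged 175 FPKM with a range of 99.9 to 221 FPKM. RPSA, also known as the laminin receptor precursor, averaged 99.3 FPKM, and RPS3, which also acts in DNA repair, 97.4 FPKM. RPL10, which joins the large subunit late near its catalytic centre, averaged 80.2 FPKM. RPL38, needed in the mouse for translation of Hox mRNAs, averaged 79.4 FPKM, and RPL13A, part of an interferon-regulated translation silencer in human cells, 176 FPKM. RPS19 and RPS14, whose loss causes anaemias in human patients, averaged 58.0 and 55.0 FPKM. RPS27A, made as a fusion with ubiquitin, averaged 33.4 FPKM.

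The textbook proteins with other names were measured as well. FAU, a fusion of a ubiquitin-like protein with a small subunit protein, ran from 33.3 to 75.9 FPKM, and RACK1, listed under its older symbol GNB2L1, from 237 to 402 FPKM. RPL35A appears only in a locus merged with LMLN, at 4.78 to 14.1 FPKM, and RPL13 in one merged with SPG7, at 4.35 to 8.20 FPKM. The signal of the partner genes in these 2 loci cannot be told apart.

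Across the 12 libraries, the ribosomal protein genes moved together. The correlation of a gene with the median of the other 76 genes, in log2(FPKM + 1), had a median of 0.793 over the genes, against 0.116 for 1202 other tested loci with a mean of at least 10 FPKM. Without the second Sanfen longissimus library, in which most of these genes were low, the medians were 0.673 and 0.219. These correlations describe 12 libraries that share scaling to a common total, and no test was made of them. RPL19 (0.983), RPL38 (0.964) and RPS7 (0.963) followed the others most closely. RPL19 measured 162, 207 and 218 FPKM in Wutou gluteal, 219, 253 and 219 FPKM in Wutou longissimus, 252, 238 and 205 FPKM in Sanfen gluteal, and 198, 115 and 228 FPKM in Sanfen longissimus muscle. Its lowest value is that of the second Sanfen longissimus library.

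RPL28 (0.106) and RPL22L1 (0.142) were among the genes that followed the others least. RPL28, a large subunit protein, ran from 81.5 to 150 FPKM. Of loci outside the 77, the most alike was the merged locus of RPL35A and LMLN (0.969), followed by ZC3H10 (0.966), a zinc finger gene, and LAMTOR2 (0.959), a subunit of the complex that brings mTOR to the lysosome. Further down were the proteasome gene PSMB6 (0.935) and genes of the respiratory chain and ATP synthase, such as NDUFS5 (0.931), NDUFV2 (0.919) and ATP5O (0.910). Without the second Sanfen longissimus library the values were 0.895 for PSMB6, 0.819 for NDUFS5, 0.752 for NDUFV2 and 0.633 for ATP5O. These loci were picked as the most alike of 1202. Moving with the ribosomal protein genes was thus not limited to genes of translation.

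The second Sanfen longissimus library stood apart. Its median deviation from the gene means was -0.71 on the log2 scale, against -0.23 to 0.28 in the other 11 libraries. Of the 77 genes, 54 (70.1%) had their lowest value there, against 11.3% of tested loci above 0 in every library. Its values were a median of 56.6% of the median of the other 11 libraries, and 30 genes were under 50%. Large and small subunit genes were low to a like degree, at a mean deviation of -0.79 and -0.72. No value of this library was 0 for any of the 77 genes.

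The depth of this drop differed between genes. RPL29 was lowest, at 14.9 FPKM against 51.6 to 186 FPKM elsewhere, or 12.3% of the median of the others. RPS25 was at 20.6%, RPL36A at 30.5% and RPS27A at 31.0% of that median. By contrast RPS3 measured 104% and RPLP0 101%, and RPS19BP1, the name that is not a ribosomal protein, 151%. The 16 other TOP mRNAs as a list had a mean deviation of -0.14 in this library, within the range of -0.18 to 0.16 in the others, and single genes lay on both sides. EEF1B2, an exchange factor of translation elongation, was at 23.0 FPKM in this library against 38.7 to 58.4 FPKM elsewhere, and TPT1, the translationally controlled tumour protein, at 255 FPKM against 410 to 638 FPKM. EEF2, the elongation factor that moves the ribosome, was at its highest there, at 414 FPKM against 197 to 408 FPKM. GNB2L1, which encodes RACK1, was at 269 FPKM, within its range of 237 to 402 FPKM elsewhere.

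**Figure D2:**
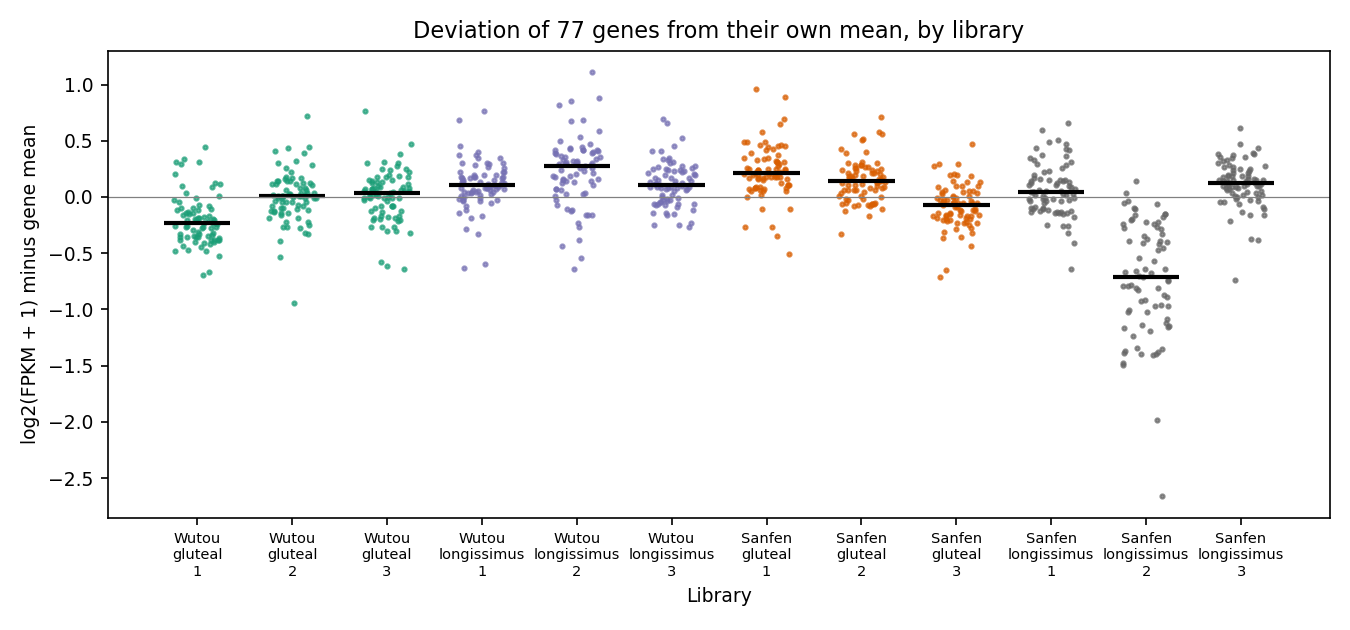
Each point is 1 of the 77 genes in 1 library: log2(FPKM + 1) minus the mean of that gene over 12 libraries (vertical axis), by library (horizontal axis), with a black bar at the median. The second Sanfen longissimus library has its median at -0.71, the other 11 between -0.23 and 0.28.

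In that library the drop was larger for proteins with a higher number in their name. Ribosomal proteins were numbered from their migration in gels, so that a higher number mostly stands for a smaller protein. The 22 textbook genes numbered 2 to 11 had a median of 63.8% of the other libraries, the 16 numbered 12 to 20 had 60.2% and the 29 numbered 21 to 39 had 39.3%. Spearman's rho between number and log2 ratio was -0.49 over 67 genes, -0.53 over 39 large subunit genes and -0.40 over 28 small subunit genes. In the other 11 libraries rho over the 67 genes lay between -0.26 and 0.27. Split by the transcripts listed at the locus, rho in the second Sanfen longissimus library was -0.57 over 43 genes with several transcripts. Over 24 genes with 1 transcript it was only -0.21. For these subsets rho was not computed in the other libraries. Over the 67 genes, number also went with mean level (rho -0.35), and the part of level was not tested. RPL5, at 39.8%, and RPL28, at 90.2%, were among the exceptions. The pattern was noted after the values were seen, and the points share 1 library.

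**Figure D3:**
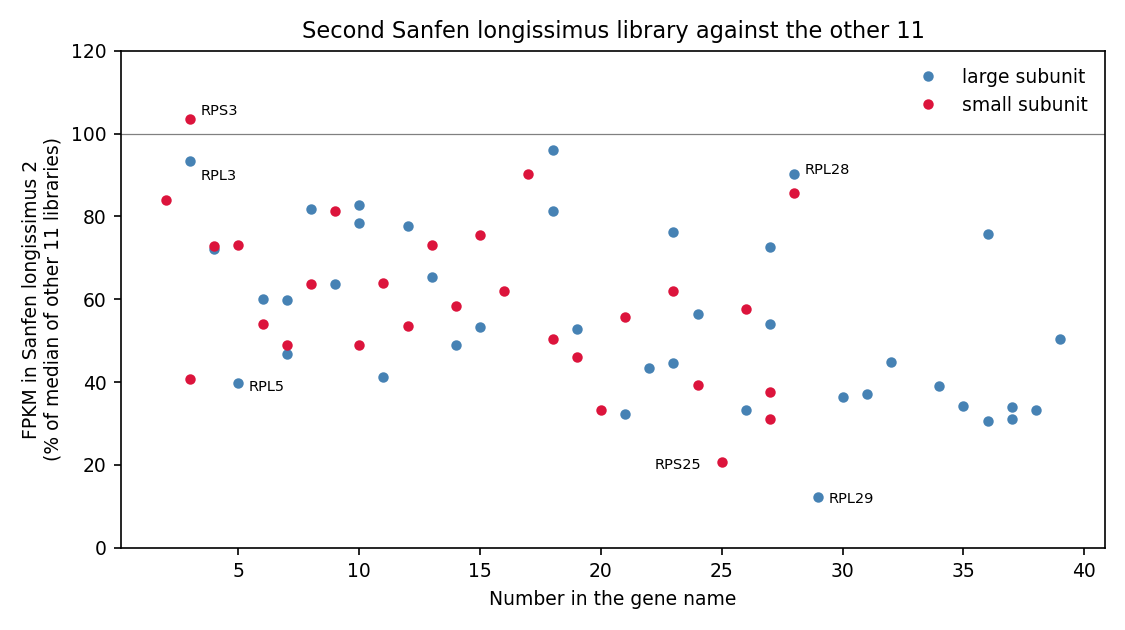
FPKM in the second Sanfen longissimus library as a percentage of the median of the other 11 libraries (vertical axis) against the number in the gene name (horizontal axis), for 67 textbook genes, by subunit. The genes numbered 2 to 11 have a median of 63.8%, those numbered 21 to 39 of 39.3%, and RPL29 is lowest at 12.3%.

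Markers of fibre type and of some other cells moved in the same library. On the log2 scale its mean deviation was -0.76 over 7 fast fibre genes, 0.87 over 9 slow fibre genes, 0.85 over 5 genes of satellite and regenerating cells and 0.58 over 4 adipocyte genes. Endothelial genes (0.11), fibroblast and tendon genes (0.05) and general muscle fibre genes (-0.01) stayed within the range of the other libraries. Summed FPKM of the fast fibre genes was 5869 in this library against 8523 to 18407 elsewhere, and of the slow fibre genes 5527 against 2493 to 7446. The first Sanfen gluteal library also had high slow fibre genes, at 0.97, and low fast fibre genes, at -0.71, and its median deviation over the ribosomal protein genes was 0.21. The part of fibre type or of other cells in the ribosomal protein values was not tested.

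The remaining libraries differed less. The second Wutou longissimus library held the highest value of 31 genes (40.3%, against 7.52% of tested loci), with a median deviation of 0.28. The first Sanfen gluteal library held the highest value of 18 genes (23.4%, against 18.0% of tested loci, so near that of other loci). The first Wutou gluteal library held the lowest value of 13 genes (16.9%, against 8.49% of tested loci), at a median deviation of -0.23. As a share of summed FPKM, these Wutou libraries ranked the other way: 2.857% in the second longissimus and 3.001% in the first gluteal library. Their summed FPKM was 319767 and 214564. Without the 10 most abundant loci the shares were 6.183% and 5.225%, so their order depended on the total used. The median coefficient of variation over the 12 libraries was 20.3% for the ribosomal protein genes and 23.4% for tested loci with a mean of at least 10 FPKM. Without the second Sanfen longissimus library these were 15.4% and 21.3%.

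Gluteal and longissimus muscle were compared within each strain to ask how ribosomal protein mRNA differs between muscles. In Wutou, 67 of the 77 genes lay lower and 10 higher in gluteal muscle, with a median log2 change of -0.24, while 58.6% of all tested loci lay higher and their median was 0.05. After quantile normalization 22 lay higher and the median was -0.12, and after median-of-ratios rescaling 7 lay higher, at -0.35. Summed FPKM was 214564, 277236 and 266717 in Wutou gluteal and 265498, 319767 and 293296 in Wutou longissimus muscle. The genes held on average 2.84% of the total in gluteal and 2.92% in longissimus muscle. Without the 10 most abundant loci these shares were 5.72% and 6.23%. The size of the difference thus depended on scaling. With the filter raised to at least 5 FPKM in at least 3 libraries, the median was -0.24 over 74 of the genes and -0.04 over all 3083 loci. Of the 77 genes 0 passed at an adjusted p under 0.05 (limma, Benjamini-Hochberg over 12408 loci, percent of loci called 0), and the smallest adjusted p was 0.870. At an unadjusted p under 0.05 there were 3 genes (3.90%), against 5.68% of all loci. The gluteal values all lay below the longissimus values for 20 genes (26.0%), against 4.18% of all loci, and all above them for 2 genes (2.60%), against 8.70% of all loci. After median-of-ratios rescaling these were 36 and 1 genes, against 7.15% and 5.36% of all loci. As deposited, the 2 higher genes were RPL22L1 and RPS27A, and the 20 included RPS15, RPL15, RPL10A and RPS16. Of the higher genes, RPL22L1 passed the filter only through gluteal libraries. Fibre markers also lay mostly lower in Wutou gluteal muscle: 5 of 7 muscle fibre genes (median -0.25), 8 of 9 slow fibre genes (median -0.20) and 5 of 7 fast fibre genes (median -0.19). Of these markers 0 passed, and their part in the ribosomal protein values was not tested.

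RPS15, a small subunit protein near the decoding centre, measured 136, 134 and 136 FPKM in Wutou gluteal and 209, 200 and 184 FPKM in Wutou longissimus muscle. The groups did not overlap, and the log2 change of -0.54 (SE 0.21) had a limma adjusted p of 0.870. RPL15, a large subunit protein, measured 8.87, 13.3 and 10.5 FPKM in gluteal and 13.6, 25.2 and 22.0 FPKM in longissimus muscle. Its log2 change was -0.81 (SE 0.36, limma adjusted p = 0.870), with 1 longissimus library close to the gluteal values. RPL36, also of the large subunit, measured 1.27, 2.07 and 2.33 FPKM in gluteal and 2.32, 3.76 and 2.70 FPKM in longissimus muscle (log2 change -0.45, SE 0.19, limma adjusted p = 0.870), and there the groups overlapped by a small margin.

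In Sanfen, 75 of the 77 genes lay higher in gluteal muscle, with a median log2 change of 0.26, while 67.6% of all tested loci lay higher, at a median of 0.08. After median-of-ratios rescaling 65 lay higher, at a median of 0.14. Of the genes 0 passed (smallest limma adjusted p = 1, with 0.0242% of all loci called), and 1 had an unadjusted p under 0.05 (1.30%, against 3.57% of all loci). The groups did not overlap for 6 genes (7.79%), all higher in gluteal muscle, against 6.27% of all loci, so this count lay near that of other loci. In the other direction there were 0 genes, against 1.27% of all loci. After median-of-ratios rescaling 2 genes did not overlap higher and 0 lower, against 2.80% and 3.23% of all loci. Without the second Sanfen longissimus library, 41 of 77 genes lay higher and the median was 0.01. In that setting 6 genes did not overlap higher and 6 lower, against 17.3% and 3.27% of all loci.

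RPL22, an RNA-binding protein of the large subunit, had the smallest p in Sanfen. It measured 49.8, 45.4 and 37.6 FPKM in gluteal and 34.2, 14.5 and 27.2 FPKM in longissimus muscle. The groups did not overlap, and the log2 change was 0.85 (SE 0.32, unadjusted p = 0.0197, limma adjusted p = 1). RPS20, a protein of the small subunit head, measured 151, 144 and 70.7 FPKM in gluteal and 80.4, 41.4 and 86.2 FPKM in longissimus muscle (log2 change 0.80, SE 0.39). The third gluteal library lay among the longissimus values. RPS12, the third by p, measured 33.0, 33.4 and 30.6 FPKM in gluteal and 27.0, 16.5 and 30.8 FPKM in longissimus muscle (log2 change 0.42, SE 0.22), and its groups overlapped.

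**Figure D4:**
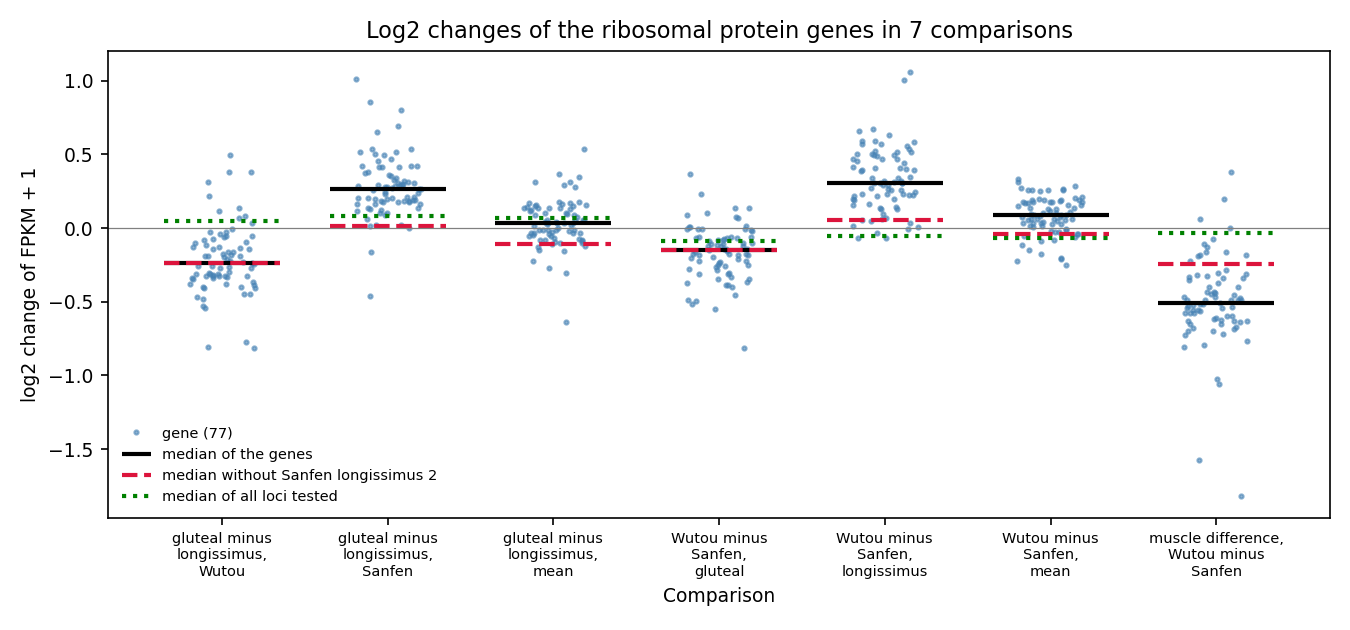
Log2 change of FPKM + 1 (vertical axis) of the 77 genes, 1 point each, in 7 comparisons (horizontal axis), with the median of the genes (black), their median without the second Sanfen longissimus library (dashed red) and the median of all 12408 loci (dotted green). The muscle difference has a median of -0.24 in Wutou and 0.26 in Sanfen, and the Sanfen value is 0.01 without that library.

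Averaged over strains, 44 genes lay higher and 33 lower in gluteal muscle, at a median of 0.04 against 0.07 for all loci. With median-of-ratios rescaling 23 lay higher, and without the second Sanfen longissimus library 15 did, at medians of -0.09 and -0.11. Of the 77 genes 0 passed (smallest limma adjusted p = 0.745, percent of loci called 0), and 3 had an unadjusted p under 0.05 (3.90%, against 6.56% of all loci): RPL15 (-0.64), RPL22 (0.54) and RPL36 (-0.30). Both strains had lower means in gluteal muscle for RPL15, with 10.2 ± 1.87 FPKM in Sanfen gluteal and 15.6 ± 7.45 FPKM in Sanfen longissimus muscle (SD, n = 3), where the groups overlapped.

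The strains were compared within each muscle. In longissimus muscle, 73 of the 77 genes lay higher in Wutou than in Sanfen, with a median log2 change of 0.31, while 40.7% of all loci lay higher, at a median of -0.06. Of the genes 0 passed (smallest limma adjusted p = 0.854, 0.0161% of all loci called), and 7 had an unadjusted p under 0.05 (9.09%, against 5.52% of all loci). The groups did not overlap for 18 genes (23.4%), all higher in Wutou, against 3.88% of all loci, and lower for 0, against 7.92%. After median-of-ratios rescaling these were 25 and 0 genes, against 6.40% and 5.06% of all loci. As a share of summed FPKM the genes held 2.92 ± 0.165% in Wutou and 2.85 ± 0.802% in Sanfen longissimus muscle (mean ± SD). Without the second Sanfen longissimus library 42 genes lay higher and the median was 0.06. Then 18 genes did not overlap higher and 8 lower, against 11.4% and 13.8% of all loci. With all libraries and the filter raised to at least 5 FPKM in at least 3 libraries, the median was 0.32 over 74 of the genes and 0.02 over all 3083 loci. Cell type markers also differed in longissimus muscle: 7 of 7 fast fibre genes lay higher in Wutou (median 0.63), while 4 of 5 genes of satellite and regenerating cells (median -0.65), 4 of 4 adipocyte genes (median -0.44) and 6 of 7 fibroblast and tendon genes (median -0.38) lay lower. Of these markers 0 passed, and their part in the ribosomal protein values was not tested. This comparison shares its Wutou libraries with the Wutou muscle comparison and its Sanfen libraries with the Sanfen one, so their values are not independent.

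RPS20 had the smallest p, with 155, 124 and 139 FPKM in Wutou and 80.4, 41.4 and 86.2 FPKM in Sanfen longissimus muscle. Each Wutou value lay above each Sanfen value (log2 change 1.06, SE 0.39, limma adjusted p = 0.854). RPL3L, the striated muscle form of RPL3, measured 38.6, 46.2 and 47.3 FPKM in Wutou and 25.6, 28.9 and 32.1 FPKM in Sanfen longissimus muscle. These groups did not overlap either, and the log2 change was 0.59 (SE 0.23, limma adjusted p = 0.854). RPLP1, of the stalk, measured 282, 415 and 275 FPKM in Wutou and 208, 234 and 201 FPKM in Sanfen longissimus muscle (log2 change 0.57, SE 0.23). For RPL3L and RPLP1 the second Sanfen library lay between the other 2 or above them, unlike for RPS20. RPS10 and RPS21, of the small subunit, followed by p, with log2 changes of 0.67 and 0.52.

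In gluteal muscle, 66 of the 77 genes lay lower in Wutou than in Sanfen, with a median log2 change of -0.15, beside -0.09 for all loci, of which 34.2% lay higher. After median-of-ratios rescaling 35 genes lay higher and after quantile normalization 32, at medians of -0.03 and -0.04, so the size of the group's difference, and the number of genes on each side, depended on scaling. In the same comparison 8 of 9 slow fibre genes lay lower in Wutou, at a median of -0.86 with 4 at an unadjusted p under 0.05, and their part in the ribosomal protein values was not tested. Of the genes 0 passed (smallest limma adjusted p = 0.963, 0.00806% of all loci called), and 1 had an unadjusted p under 0.05 (1.30%, against 4.86% of all loci). The groups did not overlap for 11 genes (14.3%), all lower in Wutou, against 8.68% of all loci, and higher for 0, against 2.19%. After median-of-ratios rescaling these were 3 and 0 genes, against 4.36% and 5.38% of all loci.

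RPLP2, of the stalk, measured 79.4, 90.5 and 61.3 FPKM in Wutou and 120, 137 and 85.8 FPKM in Sanfen gluteal muscle (log2 change -0.55, SE 0.23, limma adjusted p = 0.963). The highest Wutou value lay above the lowest Sanfen value. RPL18, of the large subunit, measured 51.1, 58.9 and 61.1 FPKM in Wutou and 76.8, 74.7 and 67.0 FPKM in Sanfen gluteal muscle. Its groups did not overlap, with a log2 change of -0.35 (SE 0.19, limma adjusted p = 0.963).

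Averaged over muscles, 59 genes lay higher and 18 lower in Wutou, at a median of 0.09 beside -0.07 for all loci. After median-of-ratios rescaling 71 lay higher, at a median of 0.20. Without the second Sanfen longissimus library 27 lay higher, at a median of -0.04. Of the genes 0 passed (smallest limma adjusted p = 0.866, percent of loci called 0) and 0 had an unadjusted p under 0.05, against 5.97% of all loci. The 3 with the smallest p were RPS10 (0.33), RPLP1 (0.26) and RPLP2 (-0.25), so that 2 proteins of the stalk had changes of opposite sign.

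The test of the difference between the muscle contrasts of the strains (Wutou minus Sanfen) gave a lower value for 74 of the 77 genes, with a median of -0.51 beside -0.03 for all loci. Without the second Sanfen longissimus library 60 of 77 were lower, at a median of -0.25. After quantile normalization 9 of 77 were higher, at a median of -0.28. With the filter raised to at least 5 FPKM in at least 3 libraries, the median was -0.52 over 74 of the genes and -0.13 over all 3083 loci. Among slow fibre genes 8 of 9 were lower, at a median of -0.61, and their part was not tested. Of the genes 0 passed (smallest limma adjusted p = 0.9998, 0.00806% of all loci called), and 4 had an unadjusted p under 0.05 (5.19%, against 2.60% of all loci). These were RPS20 (-1.58, SE 0.56), RPS16 (-1.02, SE 0.39), RPL3L (-0.77, SE 0.32) and RPL18 (-0.62, SE 0.28). Within both gluteal groups 1 of 3 RPS20 values lay apart from the others. With 3 libraries per group such a split cannot be told apart from ordinary spread, and it was not tested. Wutou gluteal muscle had 59.0, 66.0 and 134 FPKM, so that 1 of its libraries was at the level of Wutou longissimus muscle, and 1 of 3 Sanfen gluteal libraries was at the level of Sanfen longissimus muscle.

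**Figure D5:**
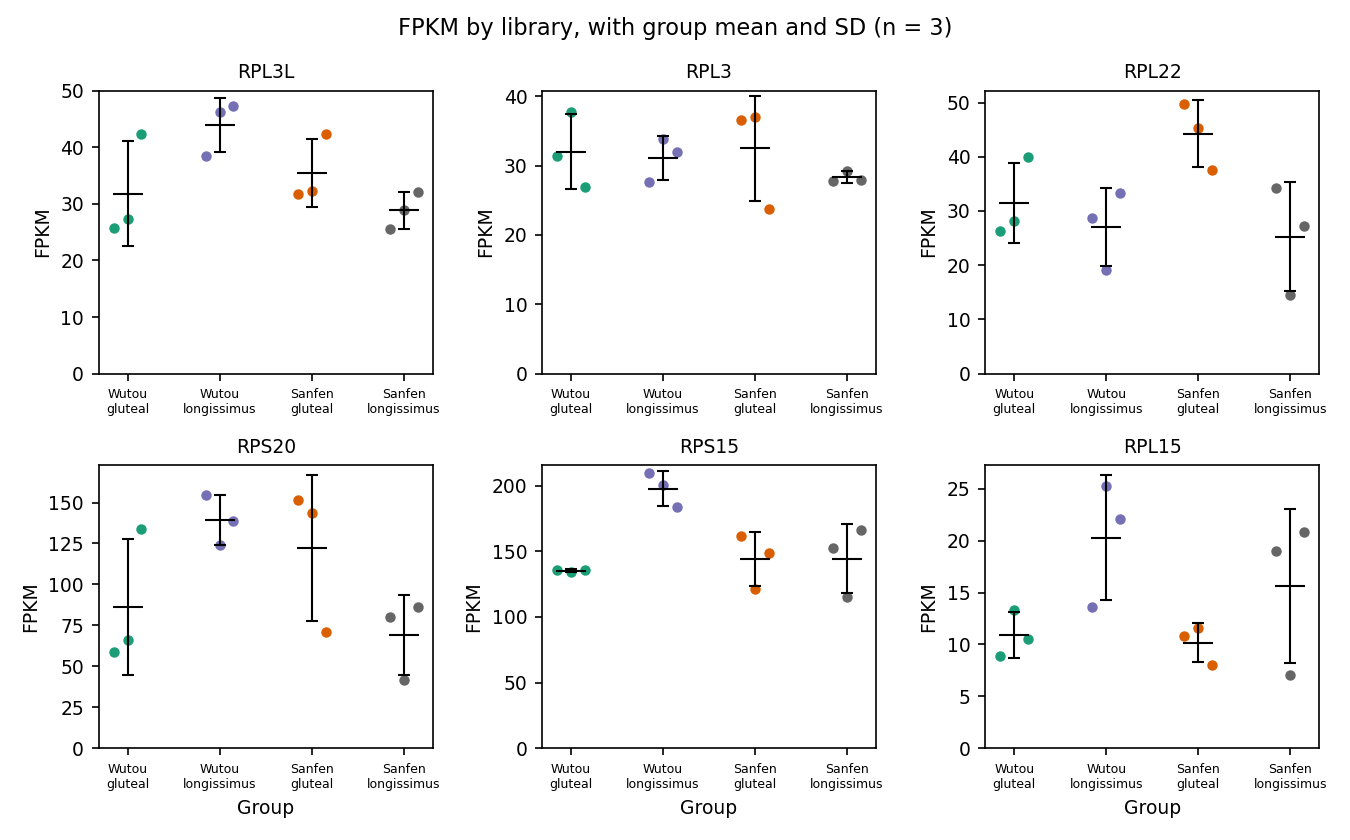
FPKM (vertical axes, from 0) of RPL3L, RPL3, RPL22, RPS20, RPS15 and RPL15 by group (horizontal axes); points are libraries, and bars give the group mean ± SD (n = 3). RPS15 lies between 184 and 209 FPKM in Wutou longissimus and between 134 and 136 FPKM in Wutou gluteal muscle. RPS20 has a library apart from the others in both gluteal groups.

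Paralogs were set beside the genes they derive from. RPL3L (MSTRG.7452) and RPL3 (MSTRG.7951) encode alternative forms of the same large subunit protein, which lies near the site where amino acids are joined. RPL3L averaged 31.8 ± 9.22 FPKM in Wutou gluteal, 44.0 ± 4.74 FPKM in Wutou longissimus, 35.5 ± 5.95 FPKM in Sanfen gluteal and 28.9 ± 3.26 FPKM in Sanfen longissimus muscle (SD, n = 3 each). RPL3 averaged 32.0 ± 5.40 FPKM in Wutou gluteal, 31.1 ± 3.16 FPKM in Wutou longissimus, 32.5 ± 7.55 FPKM in Sanfen gluteal and 28.3 ± 0.822 FPKM in Sanfen longissimus muscle. RPL3L thus made up 42.0% to 64.0% of the summed FPKM of the pair and was above RPL3 in 6 of 12 libraries. In Wutou longissimus muscle its share was 58.6 ± 1.01%. The RPL3L locus is a single assembled transcript with no reference transcript listed, and RPL3 lists 2 transcripts, so the split between them depends on the assembly.

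The other paralogs were each below the gene they are paired with in all 12 libraries. Their shares describe mRNA levels and do not show that a paralog is built into the ribosome. RPL7L1 made up 9.12% to 21.9% of its pair with RPL7, RPL26L1 5.87% to 10.9% with RPL26, RPS27L, a p53 target in human cells, 3.68% to 10.1% with RPS27, and RPL22L1, which can replace RPL22 in the mouse, 0.712% to 4.45% with RPL22. The RPL22L1 locus lists 3 transcripts and RPL22 lists 1, so that share also depends on how locus values were formed. RPL22L1 averaged 1.07 ± 0.254 FPKM in Wutou gluteal and 0.473 ± 0.231 FPKM in Wutou longissimus muscle (SD, n = 3), and those values did not overlap. It reached 1 FPKM only in the first and second Wutou gluteal and the second Sanfen gluteal libraries (1.22, 1.22 and 1.16 FPKM). RPL22L1 thus passed the filter only through gluteal libraries, and the lack of overlap is not separate support for a muscle difference. In an exact two-sided permutation test of the log2 ratio of paralog to parent within strata, 0 of 10 tests (5 pairs, by muscle and by strain) passed, and adjusted p-values were 0.694 to 0.695. The smallest p that this test can give is 0.005. With 10 tests, 1 result alone at that floor has an adjusted p of 0.05, which is not under 0.05. A single test could therefore not pass on its own, and the count of 0 does not show that the ratios are alike. The largest differences were those of RPL22L1 to RPL22 (0.36) and RPS27L to RPS27 (0.34), both Wutou minus Sanfen. Reads shared between paralogs, or with processed copies of ribosomal protein genes elsewhere in the genome, could have been split by the counting, which is not described.

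Other parts of the translation and ribosome assembly pathways were measured for comparison, and 0 of their genes passed in any of the 7 comparisons. All 16 other TOP mRNAs, among them translation elongation and initiation factors, were tested. In Wutou 8 lay higher and 8 lower in gluteal muscle, at a median of -0.00, and in Sanfen 12 lay higher, at 0.11. Of 40 ribosome biogenesis genes 36 were tested, and 25 lay higher in gluteal muscle in each strain, at medians of 0.11 in Wutou and 0.05 in Sanfen. NMD3, an export adaptor of the large subunit, averaged 6.80 ± 0.946 FPKM in Wutou gluteal and 4.49 ± 0.294 FPKM in Wutou longissimus muscle (log2 change 0.50, SE 0.15, limma adjusted p = 0.870), and NCL, or nucleolin, 5.24 ± 1.29 FPKM in Wutou gluteal and 2.91 ± 0.341 FPKM in Wutou longissimus muscle. RRP9, a factor of ribosomal RNA processing, averaged 2.21 ± 0.270 FPKM in Wutou gluteal and 3.19 ± 0.0907 FPKM in Wutou longissimus muscle.

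Of 17 genes of RNA polymerase I, which transcribes ribosomal RNA, 8 were tested, and 4 lay higher and 4 lower in Wutou gluteal muscle. Of 23 mTOR signalling genes 19 were tested, and 10 lay higher and 9 lower there. RPS6KB2, an S6 kinase, averaged 9.16 ± 1.96 FPKM in Wutou gluteal and 13.9 ± 1.60 FPKM in Wutou longissimus muscle (log2 change -0.57, SE 0.20, limma adjusted p = 0.870). LARP1, a repressor that binds TOP mRNAs, averaged 4.31 ± 1.08 FPKM in Wutou gluteal and 2.82 ± 0.399 FPKM in Wutou longissimus muscle (log2 change 0.46, SE 0.20, limma adjusted p = 0.870).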

How the data were processed

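RNA-seq of 12 skeletal muscle libraries was used. RNA was extracted with Trizol from frozen muscle, per the labels, which name an Illumina mRNA kit and a small RNA kit. TopHat2, Bowtie2 and cutadapt appear in the submitters' processing notes without versions, and no genome build is named. The authors deposited FPKM for each locus, as the headers say, with no record of rescaling between libraries. Ratios of low values between libraries showed no common step (at most 2.70% of ratios in any narrow interval), so depth is unknown and no counting interval is given.

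The genes and lists were chosen with earlier results of these data known. Named genes were the 3 with the smallest p in each comparison, the highest and lowest by level and by correlation, paralogs, and genes with a known further function; up to 5 of the genes whose groups do not overlap were also named. A few genes that this rule would name are not reported here. Other genes are examples chosen after their values were seen. Loci with FPKM of at least 1 in at least 3 libraries (12408) were tested on log2(FPKM + 1) with limma 3.58.1 (R 4.3.3), in 1 model with 4 group means (8 residual degrees of freedom), variances moderated along an intensity trend and p-values adjusted by Benjamini-Hochberg at 0.05. Where strains were compared over both muscles, the replicate number within strain was a random block (statmod 1.5.0, correlation 0.188). The model was tested on simulated data. A log2 change of 1 passed for 50% of changed loci between muscles in Sanfen, 70% between strains averaged over muscles and 22% for the difference of differences. For a log2 change of 2 these were 88%, 94% and 65%. Changes of such a size can thus be missed, and a gene that did not pass may still differ. Same-numbered libraries of the 2 muscles deviated together in Sanfen (correlations 0.246, 0.110 and 0.158, each above the limit of 0.1) and less clearly in Wutou (0.182, 0.165 and 0.0711); this pairing comes from the values, not the labels. Paralog ratios used exact permutation within strata. Alternatives changed the pseudocount, filter, scaling, libraries, replicate block, row choice and gene set. Tables were handled with pandas 2.3.3 and numpy 2.4.6 in Python 3.11.15, exact tests with scipy 1.17.1, and plots with matplotlib 3.10.9. No sequence or coordinates are printed, since no genome of the build was used here.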

Additional observations from a re-analysis of the deposited data

Results flagged for a closer look

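RPS16 and RPL18 are the ribosomal protein genes picked for this pattern: their muscles differed in opposite directions in the strains, with every gluteal library below every longissimus library in Wutou and above it in Sanfen. These are 2 of the 77 genes (2.60%), and 0.177% of all tested loci had the same pattern, in the values as deposited. After median-of-ratios rescaling the Sanfen groups of both genes overlapped, so the Sanfen part of the pattern depended on scaling. As deposited, the Sanfen groups of RPL18 were set apart only by 67.0 against 66.5 FPKM. RPS16, a small subunit protein, measured 50.3, 55.3 and 59.4 FPKM in Wutou gluteal and 63.1, 118 and 67.5 FPKM in Wutou longissimus muscle, beside 68.9, 69.6 and 90.0 FPKM in Sanfen gluteal and 60.4, 39.4 and 63.6 FPKM in Sanfen longissimus muscle. The muscle difference in Wutou minus that in Sanfen was -1.02 (limma, unadjusted p = 0.0227, adjusted p = 0.9998), -0.74 without the second Wutou longissimus library and -0.81 without the second Sanfen longissimus library. RPL18 measured 51.1, 58.9 and 61.1 FPKM in Wutou gluteal and 65.4, 86.6 and 64.4 FPKM in Wutou longissimus muscle, beside 76.8, 74.7 and 67.0 FPKM in Sanfen gluteal and 58.7, 53.1 and 66.5 FPKM in Sanfen longissimus muscle, a difference of -0.62 (limma, unadjusted p = 0.0457, adjusted p = 0.9998), -0.54 without the second Sanfen longissimus library and -0.70 to -0.48 over all libraries left out in turn. Neither passed the adjustment over all loci.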

How the results depend on the processing

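In each of the 7 comparisons 0 ribosomal protein genes passed under every alternative run. The range of the median log2 change when 1 library was left out was -0.27 to -0.16 for gluteal against longissimus muscle in Wutou, 0.01 to 0.42 in Sanfen and -0.11 to 0.10 averaged over strains; for Wutou against Sanfen it was 0.06 to 0.45 in longissimus, -0.24 to -0.07 in gluteal and -0.04 to 0.17 averaged over muscles, and for the difference of differences -0.64 to -0.25. With the replicate block the medians were as without it (-0.24 in Wutou, 0.26 in Sanfen, 0.04 averaged and -0.51 for the difference). That follows from the balanced design, in which the block can change only standard errors and p-values, and 0 genes passed. The block could not be fitted for the strain comparisons within a muscle. Centring each library on the median of these genes, an alternative chosen after seeing the data, moved the median to -0.0095 in Sanfen, to -0.035 for the strains in longissimus and to -0.0061 for the difference of differences, which follows from its construction. The mean share of summed FPKM was 2.94%, 3.99% over loci with a gene name and 5.86% without the 10 most abundant loci. Paralog ratios changed sign in places: RPL22L1 to RPL22 by muscle was 0.15 with a pseudocount of 0.1, against -0.23. Over libraries left out, RPL3L to RPL3 by strain ran from -0.019 to 0.32, RPL7L1 to RPL7 from -0.31 to 0.0058 by muscle and from -0.22 to 0.076 by strain, RPL26L1 to RPL26 by strain from -0.21 to 0.025 and RPS27L to RPS27 by muscle from -0.27 to 0.025; beyond fewer libraries, the cause was not tested. Read depth is not known, so the precision of low values such as those of RPL22L1 could not be assessed.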

Other observations

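Elongation factor 1 alpha, which brings aminoacyl-tRNA to the ribosome, has 2 forms. EEF1A1, the form made in most tissues, averaged 196 ± 26.8 FPKM in Wutou gluteal and 126 ± 42.8 FPKM in Wutou longissimus muscle, beside 142 ± 60.3 FPKM in Sanfen gluteal and 210 ± 24.8 FPKM in Sanfen longissimus muscle (SD, n = 3 each). The muscle difference in Wutou minus that in Sanfen was 1.32 (SE 0.46, limma unadjusted p = 0.0148, adjusted p = 0.9998), opposite in sign to the median of -0.51 over the ribosomal protein genes. Its correlation with their median over the 12 libraries was -0.25, as a description. EEF1A2, the form of adult muscle and nerve, averaged 812 ± 88.4 FPKM in Wutou gluteal and 1107 ± 53.5 FPKM in Wutou longissimus muscle, beside 809 ± 81.5 FPKM in Sanfen gluteal and 960.5 ± 124 FPKM in Sanfen longissimus muscle. Averaged over strains it was lower in gluteal muscle by a log2 change of -0.35 (SE 0.14, limma unadjusted p = 0.0267, adjusted p = 0.745), which did not pass. The muscle difference in Wutou minus that in Sanfen was -0.21 for EEF1A2, of the same sign as the median of the ribosomal protein genes, and its correlation with their median was -0.16. Whether either form differs from the ribosomal protein genes was not tested.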
